A study of Mus musculus with 6 samples.

Results

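RGS proteins, arrestins and G protein-coupled receptor kinases shut off signals from G protein-coupled receptors. The 10 genes described here are a set chosen by name: the RGS genes Rgs1, Rgs2, Rgs14, Rgs16, Rgs18 and Rgs19, the beta-arrestin genes Arrb1 and Arrb2, and the receptor kinase genes Grk2 and Grk6. All 10 were found by symbol among the 21959 genes of the deposited table, by a rule that uses no measured value. The set was, however, chosen with earlier results of these data known. RNA had been sequenced from cells labelled as neutrophils of Hepa1-6 tumours in mice, Hepa1-6 being a mouse hepatoma line. The 3 libraries labelled GPR35-negative and the 3 labelled GPR35-positive are called the negative and the positive libraries here, and GPR35 is itself a G protein-coupled receptor. Mouse strain, age, the way cells were sorted and whether libraries came from separate animals are not given in the sources used here, so p-values measure the spread between these libraries, which may be technical.

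When a receptor binds its ligand, the G protein alpha subunit exchanges GDP for GTP and parts from beta and gamma. RGS proteins hasten the hydrolysis of that GTP, receptor kinases phosphorylate the active receptor, and beta-arrestins bind the phosphorylated receptor, uncouple it and carry it towards clathrin-coated pits. In neutrophils and other leukocytes these proteins set how long chemokine and formyl peptide receptors signal, and thereby shape migration.

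The libraries did not hold neutrophil transcripts alone. Reads assigned to genes ranged from 15742745 to 18314107 per library, so that a single read over 1 kb of exon gave 0.0546 to 0.0635 FPKM, the unit of all levels here (fragments scaled to gene length and to library size). Summed FPKM of 12 mature neutrophil markers ran from 870 to 1109 in negative and from 9430 to 10382 in positive libraries, and of 12 macrophage and monocyte markers from 18.9 to 28.2 and from 682 to 728. Summed FPKM of 12 pan-leukocyte markers, genes that most white blood cells express, ran from 87.7 to 122 and from 832 to 859, an 8.19-fold difference of means. Hepatocyte and hepatoma markers were the most abundant set in both groups, at 24672 to 25979 and 16422 to 16821 FPKM. Gpr35 was at 2.03, 1.38 and 1.30 FPKM in negative and 18.2, 21.9 and 20.4 FPKM in positive libraries. The part that these differences in cell make-up have in any result given here was not tested, and in such bulk RNA fewer cells of a type and less RNA per cell cannot be told apart.

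Of the 10 members, 7 rose and 2 fell in positive libraries, and Arrb1 did not pass the test. Rgs2, Rgs18, Rgs1 and Rgs19 rose 5.88-fold to 8.65-fold in mean FPKM, Arrb2 rose 2.49-fold, and Rgs14 and Grk2 rose 1.68-fold and 1.65-fold. Rgs16 and Grk6 fell to 0.571 and 0.68 of their means in negative libraries. Over all 10060 genes tested, 23.3% were called higher and 45.5% lower (limma-trend, p below 0.05 after Benjamini-Hochberg adjustment over all of them), or 68.8% in either direction. With median-of-ratios scaling, which sets libraries level on the median ratio of their genes and moved the median over all tested genes from −0.19 to −0.03 on the log2 scale, 54.8% of all calls were higher against 33.9% as deposited, and the members' counts became 7 and 1. The members' median log2 fold change was 0.92. The groups did not overlap in 9 of the 10 members, against 72.5% of all genes tested.

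**Figure D1:**
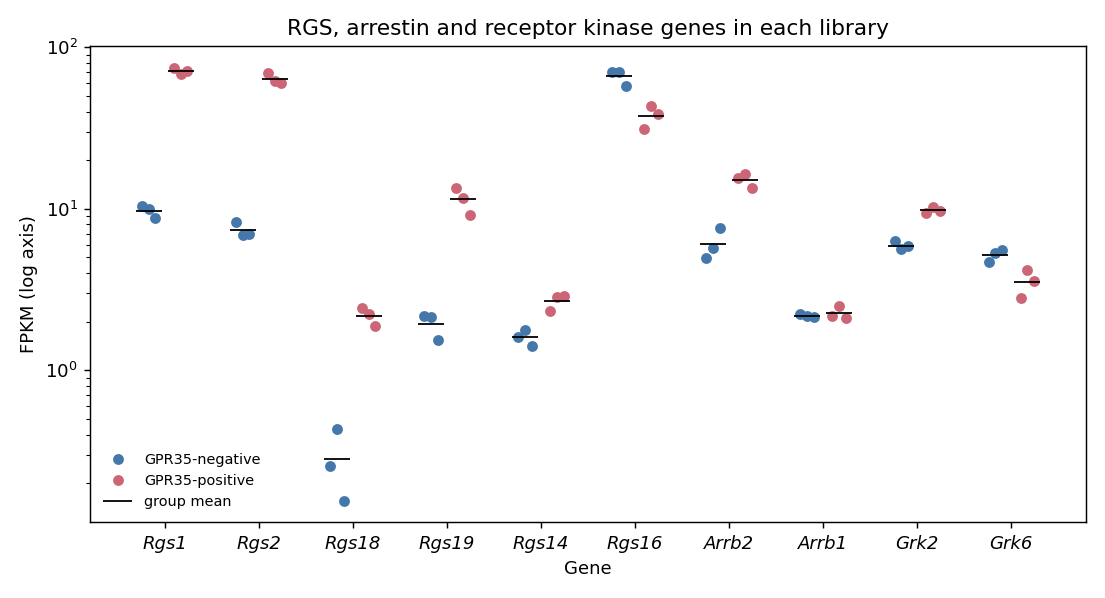
Level of each of the 10 genes in FPKM (log axis) in every library, with GPR35-negative libraries in blue, GPR35-positive in red and a black line at each group mean. The colours are apart for every gene except Arrb1, and Rgs16 and Grk6 are lower in red.

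Rgs1 and Rgs2 had the highest levels of the set in positive libraries and its largest changes in log2(FPKM + 1). By ratio of means Rgs18 lay between them, and by limma-voom on reads it was at 2.97 against 2.88 for Rgs1. Rgs1, a regulator of Gi and Gq signals that dampens chemokine responses in leukocytes, was at 10.4, 10.02 and 8.76 FPKM in negative and 74.9, 68.3 and 71.7 FPKM in positive libraries. Every positive library was far above every negative one, and within each group the values lay close together. The log2 fold change of FPKM + 1 was 2.76 (SE 0.08, adjusted p = 1.19e-09), larger than in 98.0% of the genes tested. Rgs2, which acts mainly on Gq, was at 8.28, 6.88 and 6.99 FPKM in negative and 69.5, 61.7 and 60.5 FPKM in positive libraries. The groups were again far apart, with a log2 change of 2.95 (SE 0.09, adjusted p = 1.42e-09).

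Rgs18, a short RGS protein known best from platelets and other blood cells, had the lowest mean of the set in both groups, though its range overlapped that of Arrb1 in positive libraries. It was at 0.257, 0.436 and 0.156 FPKM in negative and 2.44, 2.23 and 1.88 FPKM in positive libraries. These rest on 9, 15 and 5 reads against 85, 74 and 70 reads. For counting error alone, exact Poisson intervals at 95% for single libraries span 1.62 to 24.7 reads in the negative and 54.6 to 105 in the positive group, so they are apart. The log2 fold change of FPKM + 1 was 1.31 (SE 0.10, adjusted p = 1.43e-06), a scale that understates a 7.72-fold ratio of means at such levels. Rgs18 passed the filter of at least 1 FPKM in at least 3 libraries through the positive libraries alone. Among 11 platelet and megakaryocyte markers, whose summed level was 61.8 to 81.0 FPKM in negative and 75.4 to 80.1 FPKM in positive libraries, Gp1bb was at 0 in all 6 libraries and Itga2b at 0.335 to 0.362 and 0.150 to 0.247 FPKM. Of the 3 that were tested, Pf4, at 1.80 to 3.06 and 17.3 to 19.0 FPKM, and Clec1b, at 0.124 to 0.216 and 5.08 to 6.57 FPKM, rose. Ppbp, which made up most of the sum, fell by 0.33 (adjusted p = 0.00901, and 0.218 with median-of-ratios scaling). Without a filter 4 of the 10 above 0 rose, Gp9 and Tubb1 included, and 2 fell, Itga2b included.

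Rgs19, also called GAIP, and Rgs14, which carries a GoLoco motif besides its RGS domain, both act on Gi and both rose, by different amounts. Rgs19 was at 2.16, 2.14 and 1.54 FPKM in negative and 13.5, 11.7 and 9.21 FPKM in positive libraries, a log2 change of 2.07 (SE 0.14, adjusted p = 4.02e-07). Its positive values spread more widely than those of Rgs1 but stayed clear of the other group. Rgs14 was at 1.61, 1.77 and 1.42 FPKM in negative and 2.33, 2.86 and 2.87 FPKM in positive libraries. Here the gap between the groups was small, and the log2 change was 0.50 (SE 0.09, adjusted p = 0.000971). The ratio of Rgs19 to Rgs14, both per length, was 1.21 ± 0.128 in negative and 4.36 ± 1.31 in positive libraries (SD, n = 3 each), with no overlap.

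Rgs16, which acts on Gi and Gq and is also expressed in liver, went the other way. It was at 70.1, 70.5 and 57.7 FPKM in negative and 31.4, 43.1 and 38.8 FPKM in positive libraries. All positive values lay below all negative ones, and the log2 change was −0.80 (SE 0.12, adjusted p = 0.00022). Rgs16 fell under each of the 12 alternative settings, by 0.60 to 0.90. Summed hepatocyte and hepatoma markers stood at 0.654 of their negative level in the same libraries, beside 0.571 for Rgs16. Of those 12 markers 11 fell and 1, Serpina1a, rose, and the median log2 fold change was −0.61. Summed T and NK cell markers stood at 0.695 of their negative level, and of the 7 tested 4 fell and 3 did not pass. Which cells the Rgs16 transcripts came from was not tested.

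**Figure D2:**
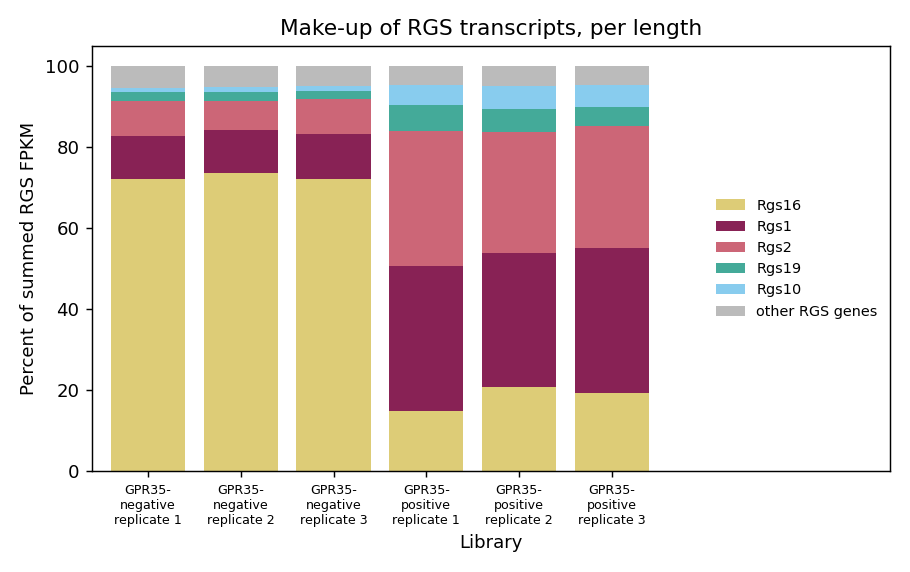
Share of each gene in the summed FPKM of the 21 RGS genes of the table (percent, stacked bars), by library. Rgs16 takes 72.1% to 73.7% of the bar in GPR35-negative and 15.0% to 20.8% in GPR35-positive libraries, where Rgs1 and Rgs2 take the largest parts.

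The make-up of RGS transcripts differed between the groups, as did their sum. Summed over the 21 genes of the table named Rgs with a number, the level was 90.9 ± 9.61 FPKM in negative and 205 ± 4.52 FPKM in positive libraries (SD, n = 3 each), 2.26-fold higher. Rgs16 took 72.7% ± 0.896 of that sum in negative and 18.4% ± 3.04 in positive libraries. The share of Rgs1 went from 10.7% ± 0.253 to 34.9% ± 1.56 and that of Rgs2 from 8.16% ± 0.842 to 31.1% ± 1.86 (SD, n = 3 each). Rgs16 was thus 6.79 ± 0.232 times the FPKM of Rgs1 in negative libraries and 0.53 ± 0.106 times in positive ones. The exon length behind the FPKM of Rgs1, 6947 bases, equals its whole gene span, against 2339 bases for Rgs16. Shares, orders and ratios across genes depend on such lengths, while the change of a single gene between groups does not. In reads, Rgs16 was at 2123 to 2826 and Rgs1 at 958 to 1243 in negative libraries.

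In the order of FPKM over all 10 members, negative libraries ran Rgs16, Rgs1, Rgs2, Arrb2, Grk2, Grk6, Arrb1, Rgs19, Rgs14 and Rgs18. The ranges of the neighbours Rgs2 and Arrb2, Arrb2 and Grk2, Arrb1 and Rgs19, and Rgs19 and Rgs14 overlapped there. Positive libraries ran Rgs1, Rgs2, Rgs16, Arrb2, Rgs19, Grk2, Grk6, Rgs14, Arrb1 and Rgs18. The ranges of Rgs1 and Rgs2, of Rgs19 and Grk2, and of each neighbouring pair from Grk6 to Rgs18 overlapped in that group.

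Rgs2, Rgs1 and Rgs18 lie in 1 stretch of mouse chromosome 1 (GRCm38, GENCODE M21), all on the reverse strand. Rgs2 (ENSMUSG00000026360) spans chr1:143999338-144004161, Rgs1 (ENSMUSG00000026358) chr1:144242296-144249242 and Rgs18 (ENSMUSG00000026357) chr1:144752683-144775435, with gaps of 238 kb and 503 kb between them. Rgs13 and Rgs21, the RGS genes that sit in those gaps, were at most at 0.141 and 0.0148 FPKM in any library. Within 1 Mb of the start of any of the 3 members the table holds 10 genes, of which 6 were tested. Besides the 3 members, Glrx2 and Trove2 fell by 0.32 and 0.50 on the log2 scale (adjusted p = 0.0104 and 0.000423), and Uchl5, at 38.1 to 48.3 FPKM in negative and 39.4 to 45.2 FPKM in positive libraries, did not pass (adjusted p = 0.903). Rgs16 (ENSMUSG00000026475, chr1:153740349-153745468, forward strand) lies 8.96 Mb further on. Rgs14 (ENSMUSG00000052087, chr13:55369732-55384687) and Grk6 (ENSMUSG00000074886, chr13:55445072-55460927) lie near each other on chromosome 13, on the forward strand and 60.4 kb apart, and moved in opposite directions. Rgs19 (ENSMUSG00000002458) is at chr2:181688419-181693977 on the reverse strand and Grk2 (ENSMUSG00000024858) at chr19:4286001-4306222 on the reverse strand. Arrb1 (ENSMUSG00000018909) is at chr7:99535466-99606771 and Arrb2 (ENSMUSG00000060216) at chr11:70432635-70440828, both on the forward strand. None of the 10 overlaps another gene of the table.

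RefSeq start sites (GRCm38.p6) were held for 4 of the 10 members, Rgs2 and Rgs19, which rose, and Rgs16 and Grk6, which fell. For each, the 250 bases before the start site nearest to that of GENCODE are shown, because these 4 members differ in direction. They are given 5′ to 3′ on the gene's own strand. The RefSeq starts of Rgs2 and Rgs16 lie a few bases from those of GENCODE. Capitals mark CCAAT (the CCAAT box), GGGCGG (the GC box), TGACG (a part of the cyclic AMP response element) and GAGGAAGT (a motif of Ets factors such as PU.1) on either strand, and no match overlaps that of another motif.
Rgs2, chr1:144004150-144004399, reverse strand: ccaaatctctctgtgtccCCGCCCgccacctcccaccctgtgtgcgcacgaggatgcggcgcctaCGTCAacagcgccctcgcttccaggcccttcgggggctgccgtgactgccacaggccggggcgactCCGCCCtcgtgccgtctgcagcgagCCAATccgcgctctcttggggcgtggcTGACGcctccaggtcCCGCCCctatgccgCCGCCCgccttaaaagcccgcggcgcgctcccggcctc
Rgs19, chr2:181693978-181694227, reverse strand: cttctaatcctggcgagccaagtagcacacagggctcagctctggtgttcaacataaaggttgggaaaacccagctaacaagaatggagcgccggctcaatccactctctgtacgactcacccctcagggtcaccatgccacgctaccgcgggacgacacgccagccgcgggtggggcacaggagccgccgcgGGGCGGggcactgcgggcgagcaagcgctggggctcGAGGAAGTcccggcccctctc
Rgs16, chr1:153740103-153740352, forward strand: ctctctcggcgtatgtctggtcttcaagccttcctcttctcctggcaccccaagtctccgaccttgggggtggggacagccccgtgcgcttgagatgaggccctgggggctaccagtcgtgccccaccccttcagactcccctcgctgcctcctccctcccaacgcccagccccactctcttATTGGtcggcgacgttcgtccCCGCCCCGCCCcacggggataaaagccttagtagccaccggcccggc
Grk6, chr13:55444822-55445071, forward strand: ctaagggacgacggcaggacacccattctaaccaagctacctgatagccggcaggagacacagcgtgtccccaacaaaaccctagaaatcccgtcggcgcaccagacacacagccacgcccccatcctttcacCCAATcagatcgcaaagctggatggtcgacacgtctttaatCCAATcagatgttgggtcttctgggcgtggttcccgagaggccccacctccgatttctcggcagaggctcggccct
The Rgs2 window holds 4 matches to GGGCGG, 2 to TGACG and 1 to CCAAT. Rgs19 holds 1 match to GGGCGG and 1 to GAGGAAGT, 21 bases before the start site. Rgs16 holds 2 matches to GGGCGG, which share 1 base, and 1 to CCAAT, and Grk6 holds 2 to CCAAT. Rgs19 and Grk6 have 3 windows each in that source, and those not shown for Grk6 include a match to GGGCGG. Over 32851 such windows of mouse genes, 33.9% hold CCAAT, 32.7% GGGCGG, 17.8% TGACG and 2.44% GAGGAAGT. A match is a run of letters and does not show that a factor binds there.

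Of the beta-arrestins, Arrb2 rose and Arrb1 did not pass the test. Arrb2 was at 4.97, 5.73 and 7.59 FPKM in negative and 15.4, 16.5 and 13.6 FPKM in positive libraries, a log2 change of 1.20 (SE 0.13, adjusted p = 2.39e-05). The negative libraries spread widely around a mean of 6.10 ± 1.35 FPKM (SD, n = 3), yet the highest of them was far below the lowest positive one. Arrb1 was at 2.23, 2.19 and 2.14 FPKM in negative and 2.18, 2.50 and 2.10 FPKM in positive libraries. The groups overlapped, and the log2 fold change of 0.03 had a 95% interval from −0.15 to 0.21 (adjusted p = 0.744). Arrb1 rested on 377 to 456 reads per library. Arrb2 was 2.8 ± 0.672 times the level of Arrb1 in negative and 6.71 ± 0.337 times in positive libraries (SD, n = 3 each). Of the summed FPKM of the 4 arrestins, Arrb2 took 68.2% to 77.6% in negative and 84.5% to 86.0% in positive libraries, and the visual arrestin genes Sag and Arr3 stayed at or below 0.392 and 0.0520 FPKM.

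The receptor kinases moved in opposite directions. Grk2, a widely expressed kinase that G protein beta-gamma subunits bring to the membrane, was at 6.28, 5.64 and 5.85 FPKM in negative and 9.36, 10.3 and 9.69 FPKM in positive libraries. Its values were tight in both groups, and the log2 change was 0.64 (SE 0.08, adjusted p = 7.54e-05). Grk6, a membrane-bound kinase that acts on chemokine receptors such as CXCR4, was at 4.66, 5.34 and 5.53 FPKM in negative and 2.81, 4.18 and 3.57 FPKM in positive libraries. The groups were separate but near each other, with a log2 change of −0.46 (SE 0.12, adjusted p = 0.00612). With median-of-ratios scaling Grk6 was at −0.30 and missed the threshold (adjusted p = 0.0582). The ratio of Grk6 to Grk2 went from 0.878 ± 0.118 to 0.358 ± 0.0537 (SD, n = 3 each), with no overlap. Grk6 took 40.5% to 47.5% of the summed FPKM of the 6 kinase genes in negative and 20.5% to 25.7% in positive libraries.

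Ratios within a library do not depend on how libraries are scaled, and 7 pairs of members were compared that way. For 6 of them the groups did not overlap, and the exact permutation test gave p = 0.1, the smallest that 3 against 3 can give (adjusted p = 0.117 over the 7 pairs, two-sided), so the design cannot reach 0.05. Besides the ratios already given, these were Arrb2 to Grk2, at 1.03 ± 0.254 and 1.55 ± 0.133, and Rgs2 to Rgs1, at 0.761 ± 0.064 and 0.892 ± 0.0435 (SD, n = 3 each). The ratio of Rgs18 to Rgs1 was 0.0287 ± 0.0133 in negative and 0.0305 ± 0.00369 in positive libraries, with overlapping groups (exact permutation p = 0.7, adjusted p = 0.7). The share of other gene pairs whose ratios do not overlap between the groups was not computed. Among single genes tested it was 72.5%, so the count of 6 of 7 is not read as a trait of these members.

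**Figure D3:**
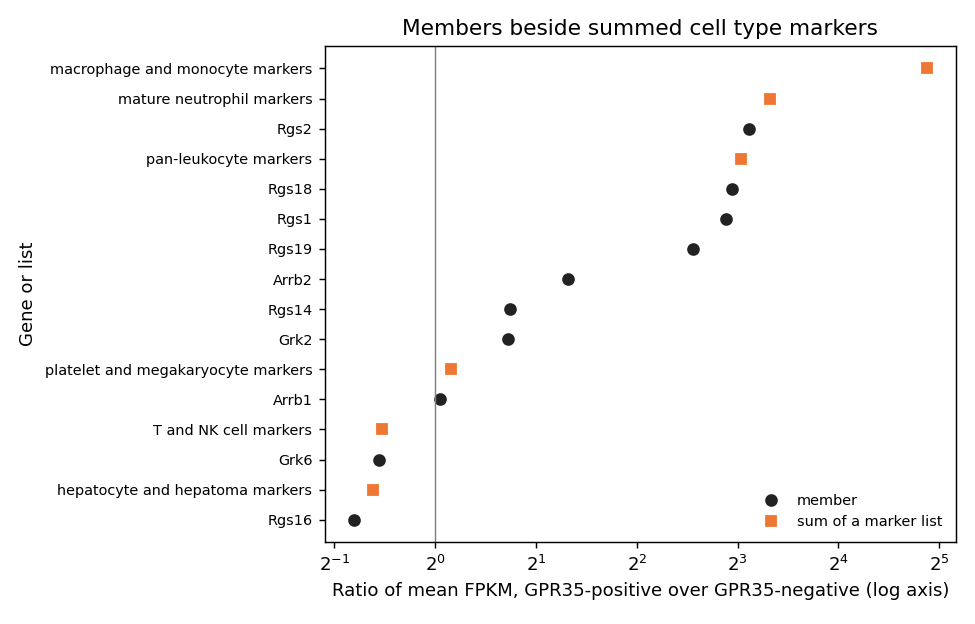
Ratio of mean FPKM, GPR35-positive over GPR35-negative (log axis), for the 10 genes (black circles) and for summed marker lists (orange squares). Rgs2, Rgs18, Rgs1 and Rgs19 lie near the pan-leukocyte markers at 8.19, Rgs16 and Grk6 near the hepatocyte and hepatoma markers at 0.654 and the T and NK cell markers at 0.695, and the other members between.

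The members were also set against the summed pan-leukocyte markers of the same library. That sum was 8.19-fold higher in positive libraries, and 4.64% of all genes tested rose at least 8-fold in mean FPKM. Most genes would thus be lower relative to it, not these members alone. The share of all genes tested whose groups do not overlap on this measure was not computed. Rgs1 stood at 0.0945 ± 0.00834 of that sum in negative and 0.0843 ± 0.00261 in positive libraries, Rgs2 at 0.0718 ± 0.00684 and 0.0752 ± 0.00531, and Rgs18 at 0.00273 ± 0.00137 and 0.00257 ± 0.000339 (SD, n = 3 each). For these 3 the groups overlapped (exact permutation p = 0.2, 0.5 and 1). The other 7 members were lower relative to that sum in every positive library than in any negative one (exact permutation p = 0.1 each, the smallest possible, adjusted p = 0.143 over 10 members). Among them Rgs19 differed least, from 0.0188 ± 0.00204 to 0.0135 ± 0.00252, and Arrb2 went from 0.0612 ± 0.0233 to 0.0179 ± 0.00202. Grk2 went from 0.0579 ± 0.00787 to 0.0115 ± 0.000778 and Rgs16 from 0.642 ± 0.0625 to 0.0445 ± 0.00765 (SD, n = 3 each).

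Of 19 other RGS-family genes 5 were tested, of which 2, Rgs10 and Rgs5, rose and 3, Axin2, Rgs12 and Axin1, fell, and the median log2 fold change was −0.26. Without a filter 4 of the 19 rose and 2 fell, and the median was 0.018. Rgs10, a small regulator of Gi known from microglia and other myeloid cells, was at 1.02, 1.10 and 1.04 FPKM in negative and 10.6, 11.9 and 11.0 FPKM in positive libraries. That 10.6-fold ratio exceeded that of any RGS member, with a log2 change of 2.56 (SE 0.08, adjusted p = 1.91e-09). Rgs5, known from pericytes, rose by 1.10 on the log2 scale, from 0.419 to 0.753 FPKM in negative to 2.14 to 2.53 FPKM in positive libraries. It passed the filter through positive libraries alone. Of 8 fibroblast and pericyte markers, whose summed level ran from 16.0 to 21.8 FPKM in negative and from 33.0 to 40.0 FPKM in positive libraries, 6 were tested, of which 5 rose, Acta2 by 2.21, and Des fell by 0.54. The pericyte marker Pdgfrb was at 0.0580 to 0.127 and 0.181 to 0.268 FPKM, and without a filter it rose by 0.17 (adjusted p = 0.0113). Their part in the change of Rgs5 was not tested. Axin1 and Axin2, scaffolds of the beta-catenin destruction complex with an RGS domain, fell by 0.26 and 0.57, and Rgs12 fell by 0.35. Rgs12 was at 1.22 to 1.39 FPKM in negative and 0.729 to 0.888 FPKM in positive libraries. It passed the filter through negative libraries alone, and without a filter its adjusted p was 0.00782. The call of Axin1 was lost in 6 of 11 alternatives, among them median-of-ratios scaling (adjusted p = 0.383) and no filter (adjusted p = 0.0742).

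Among 8 other arrestin-family genes, of which 3 rose and 1 fell without a filter, 5 were tested, of which Arrdc3 and Arrdc4, alpha-arrestins that bind ubiquitin ligases, rose by 1.19 and 1.06 (adjusted p = 1.66e-07 and 8.79e-07). Arrdc3 was at 13.2 to 13.5 FPKM in negative and 30.1 to 33.3 FPKM in positive libraries. Arrdc2 fell by 0.32 (adjusted p = 0.0182, and 0.237 with median-of-ratios scaling). Arrdc1 and Txnip, the thioredoxin-binding alpha-arrestin gene, did not pass (adjusted p = 0.85 and 0.48). None of the 4 other receptor kinase genes reached the filter, and without a filter 2 of them, Grk3 and Grk5, rose. Grk5 was at 0.362, 0.209 and 0.153 FPKM in negative and 0.654, 0.642 and 0.774 FPKM in positive libraries. Its log2 change without a filter was 0.45 (adjusted p = 0.00247). Grk3, the kinase closest to Grk2, was at 0.0534, 0.0407 and 0.0804 FPKM in negative and 0.745, 0.979 and 0.999 FPKM in positive libraries, and without a filter it rose by 0.85 on the log2 scale (adjusted p = 4.96e-05).

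**Figure D4:**
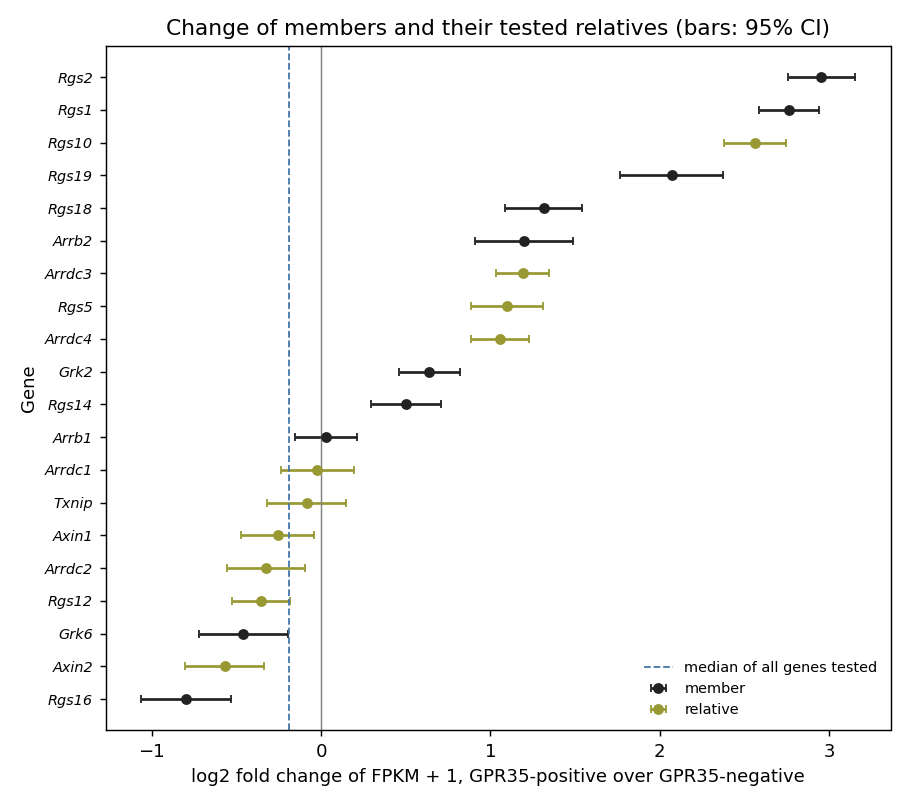
Log2 fold change of FPKM + 1 with its 95% interval for the 10 members (black) and 10 tested relatives (olive), and the median of all genes tested (dashed line, −0.19). Rgs2, Rgs1, Rgs10 and Rgs19 are the 4 largest, and Rgs16 is the lowest.

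Upstream of these genes, all 12 chemoattractant and metabolite receptors tested were called higher, or 11 of 12 without a filter, and the median log2 fold change was 3.03. S1pr1, the sphingosine-1-phosphate receptor gene, was the one lost (log2 change 0.24, adjusted p = 0.0456, and 0.112 without a filter). Its groups overlapped, and its call was lost in 8 of 11 alternatives. Fpr1, C5ar1, Hcar2 and Ptafr rose by 3.29, 3.20, 3.32 and 3.79 and Gpr35 by 3.05. Gpr35 is itself among the 12, and since the groups are named for GPR35, its rise is no separate result. Fpr1 and Cxcr2 of this list are also among the mature neutrophil markers. Of 24 G protein subunit genes 14 were tested, of which 8 rose and 3 fell, or 10 and 1 with median-of-ratios scaling. Without a filter 9 of the 24 rose and 2 fell, and the median log2 fold change was 0.13 against 0.33 over the 14 tested. Gna13, an alpha subunit gene, and Gng2, a gamma subunit gene, rose 3.03-fold and 6.7-fold in mean FPKM. Gng11, another gamma subunit gene, was at 0.207 to 0.883 FPKM in negative and 1.78 to 2.32 FPKM in positive libraries and rose 4.46-fold. Gnai2, the alpha subunit that many leukocyte receptors use, rose 1.71-fold. Of 6 genes for GoLoco proteins and Ric8 chaperones, Gpsm1 and Gpsm3 rose by 1.41 and 0.81 and 4 fell, among them Gpsm2 and Rap1gap by 0.56 and 0.62. With median-of-ratios scaling 3 of those fell.

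Downstream, 19 of 21 genes of the clathrin and ubiquitin machinery that takes up receptors were tested and showed 1 rise, of the ubiquitin ligase gene Mdm2 by 0.53, and 6 falls, with 12 not passing. With median-of-ratios scaling the split was 5 rises and 3 falls. Nedd4 and Itch, other ubiquitin ligase genes, fell by 0.73 and 0.36, and Ap2a2, an adaptor subunit, fell by 0.45 (adjusted p = 4.23e-05, 0.00163 and 0.000274). With median-of-ratios scaling Itch missed the threshold (adjusted p = 0.057). Cltb, a clathrin light chain gene, and Ap2a1, another adaptor subunit gene, are among the 6 falls and lost their calls in 7 of 12 and 5 of 11 alternatives. The phosphodiesterases that break down cyclic AMP held a gene near Rgs1 and Rgs2 in level and change. Pde4b was at 9.26, 8.27 and 7.63 FPKM in negative and 75.7, 69.7 and 71.5 FPKM in positive libraries, a log2 change of 2.97 (SE 0.08, adjusted p = 9.16e-10). Pde8a, Pde1b and Pde4d, the other 3 of the 4 tested among 13, rose by 1.33, 1.31 and 0.39. Without a filter 8 of the 13 rose and 1 fell, and the median log2 fold change was 0.24 against 1.32 over the 4 tested. Pde8a and Pde1b, like Rgs18, Rgs5, Gng2, Gng11, Cxcr4, Fpr2 and Clec1b, passed the filter through positive libraries alone.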

How the data were processed

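The deposited table holds FPKM of genes by library, as its column headers state. Per the submitters' processing notes the tools were DESeq 1.38.3, HTSeq 0.9.1, HISAT2 2.1.0 and fastp 0.22.0, with no roles given. They name GRCh38, a human build, but the gene IDs are those of mouse. Annotation and strand setting are not given in the sources used here. Symbols, GRCm38 positions and exon lengths came from GENCODE M21 (21902 of 21959 IDs matched). With those lengths 97.7% of values above 0 came out whole within 0.02 reads, which gave reads and library totals, and so did all values of the 10 members, at 54 to 9117 reads per library for those other than Rgs18.

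The test was limma-trend (limma 3.58.1, R 4.3.3) on log2(FPKM + 1), two-sided, Benjamini-Hochberg over the 10060 genes that reached 1 FPKM in 3 or more libraries, threshold 0.05. It was also run on simulated counts with a small share of genes changed, as many raised as lowered. These data differ from that setting, so that run does not show how the test performs here. SDs are over 3 libraries. Ratios were tested by exact permutation over libraries. Named genes are the members, tested relatives (1 list is not reported here), up to 4 genes per pathway list by smallest p, Gpr35, neighbours within 1 Mb and defining markers. Grk3, Grk5, Sag, Arr3, Serpina1a, S1pr1, Cxcr4, Fpr2, Cltb, Ap2a1, Acta2, Des, Pf4, Ppbp, Clec1b, Gp9, Tubb1 and the promoter motifs were chosen after values were seen. Members and lists were chosen with earlier results of these data known. The marker lists for T and NK, B, mast cell, endothelial and fibroblast cells had ratios of summed FPKM of 0.695, 1.86, 2.8, 0.909 and 1.89. Results were recomputed with each library left out, with a replicate block, by limma-voom on the recovered reads, after median-of-ratios scaling, and with a pseudocount of 0.1 or other filters. Python 3.11.15, numpy 2.4.6, pandas 2.3.3, scipy 1.17.1 and matplotlib 3.10.9 were used.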

Additional observations from a re-analysis of the deposited data

How the results depend on the processing

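Members called higher numbered 7 and lower 2 with a pseudocount of 0.1, no filter, limma-voom and each library left out. Median-of-ratios scaling left 1 member lower, since Grk6 did not pass, and 2401 genes lower against 4575 as deposited. A filter of 5 FPKM left 6 members tested, with 5 higher and 1 lower, and 1434 genes higher against 2342. Leaving out each library gave 2176 to 2362 genes higher and 3900 to 4558 lower. Arrb1, which did not pass, was at −0.021 without GPR35-positive replicate 2 and ran from −0.021 to 0.066 over left-out libraries. The log2 ratio of Rgs18 to Rgs1 differed by 0.18 between groups, by −0.24 with a pseudocount of 0.1 and by −0.11 to 0.53 over left-out libraries. That of Rgs18 to pan-leukocyte markers differed by 0.02, by −0.41 with that pseudocount and by −0.23 to 0.40 over left-out libraries. Both rest on few Rgs18 reads in GPR35-negative libraries, 5 to 15. The cause of the shifts given here was not tested.

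Same-numbered libraries did not all deviate together (correlations across genes of −0.00177, 0.4 and −0.0642), and not every library correlated best with its own number, so the numbers were not taken to pair them. With the replicate number as a block 7 members were higher and 2 lower, and 2365 genes higher and 4633 lower.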
